A study of Mus musculus with 4 samples.

Results

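The Pax genes encode transcription factors that bind DNA through a paired domain. The 7 members described here, *Pax1*, *Pax2*, *Pax3*, *Pax6*, *Pax7*, *Pax8* and *Pax9*, were taken by symbol from feature lists of 32286 entries at days 4, 5 and 6 and 32287 entries at day 11, and all 7 were listed on each day. The lists hold 9 Pax genes, and *Pax4* and *Pax5* are the members of the family left aside. The cells came from gastruloids, embryo-like aggregates of mouse embryonic stem cells of the wild type line Zx1, with no other genotype and no untreated arm. Per the study's text every gastruloid had received a Wnt agonist (Chiron) before day 4, and bFGF, VEGF and ascorbic acid were added from day 4 and withdrawn before day 11, when the medium was N2B27 alone. Day 4 therefore precedes the cardiogenic factors, days 5 and 6 lie within them and day 11 follows them. Each day is 1 library of dissociated cells from at least 8 pooled gastruloids, so no value below has a replicate, no difference between days can be tested, and day and library cannot be told apart.

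After quality filters and removal of doublet-scored barcodes, the libraries of days 4, 5, 6 and 11 retained 6555, 6457, 5254 and 7850 cells. Their median depth was 24186, 28177, 24746.5 and 11435.5 unique molecular identifiers (UMIs, each standing for 1 captured transcript) per cell. Of 26046 different barcodes kept, 70 occurred in more than 1 library (0.269%). Levels are given as CPM, the UMIs of a gene per 1000000 UMIs of the same cells, and intervals are 95% and cover counting error only. Because 3′ counting efficiency differs between genes, CPM values are compared between cells and days for the same gene and not between genes. A cell was called positive from 1 UMI.

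The members belong to 4 subfamilies. *Pax3* and *Pax7* pattern the dorsal neural tube, mark neural crest and dermomyotome and act upstream of the myogenic factors in the trunk. *Pax6* is known from eye, forebrain and the ventricular zone of the spinal cord. *Pax2* and *Pax8* act together in the intermediate mesoderm that forms the kidney, and are also made by the midbrain-hindbrain boundary and by spinal interneurons. *Pax1* and *Pax9* are known from the sclerotome, which forms the vertebral column, and from the pharyngeal pouches.

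In the GRCm38 annotation (GENCODE M21) all 7 are protein-coding genes. *Pax1* (ENSMUSG00000037034) spans chr2:147361925-147393295 on the plus strand, *Pax2* (ENSMUSG00000004231) spans chr19:44756045-44837871 on the plus strand and *Pax3* (ENSMUSG00000004872) spans chr1:78101267-78197134 on the minus strand. *Pax6* (ENSMUSG00000027168) lies at chr2:105668900-105697364 on the plus strand, *Pax7* (ENSMUSG00000028736) at chr4:139737062-139833528 on the minus strand, *Pax8* (ENSMUSG00000026976) at chr2:24420560-24475599 on the minus strand and *Pax9* (ENSMUSG00000001497) at chr12:56691767-56712822 on the plus strand. On the opposite strand, 5 members share exonic bases with another gene: *Pax1* with *AI646519*, *Pax2* with *1700039E22Rik*, *Pax6* with *Pax6os1*, *Pax8* with *Gm13415*, and *Pax9* with *Gm15524* and *Slc25a21*. Whether the counting used strand is not given in the sources used here, and without it reads of such a pair cannot be told apart.

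The stretches before the start sites of *Pax2* and *Pax8* are shown because these were the members whose levels were most alike across cell groups, and that of *Pax1* because it was the 1 window of the members searched that held a paired-domain word. They are the 250 bases before a start site in RefSeq (GRCm38.p6), read 5′ to 3′ on the gene's strand, at chr19:44755502-44755751 (plus) for *Pax2*, chr2:24475600-24475849 (minus) for *Pax8* and chr2:147364744-147364993 (plus) for *Pax1*. Capitals mark the CCAAT box (CCAAT) and the core of the sites bound by the Pax2, Pax5 and Pax8 paired domain (GCGTGAC). The *Pax1* start used here lies 3069 bases from the annotated GENCODE start, and *Pax2* has other RefSeq starts as well.
Pax2: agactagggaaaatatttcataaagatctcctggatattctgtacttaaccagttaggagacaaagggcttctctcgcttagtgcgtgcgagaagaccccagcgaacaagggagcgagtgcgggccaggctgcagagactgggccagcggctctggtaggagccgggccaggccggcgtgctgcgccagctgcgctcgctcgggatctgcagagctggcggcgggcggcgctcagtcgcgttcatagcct
Pax8: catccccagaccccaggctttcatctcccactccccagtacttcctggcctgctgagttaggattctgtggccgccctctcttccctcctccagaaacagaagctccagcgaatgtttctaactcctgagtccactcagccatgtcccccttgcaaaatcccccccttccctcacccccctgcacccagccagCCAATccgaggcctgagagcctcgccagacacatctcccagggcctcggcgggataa
Pax1: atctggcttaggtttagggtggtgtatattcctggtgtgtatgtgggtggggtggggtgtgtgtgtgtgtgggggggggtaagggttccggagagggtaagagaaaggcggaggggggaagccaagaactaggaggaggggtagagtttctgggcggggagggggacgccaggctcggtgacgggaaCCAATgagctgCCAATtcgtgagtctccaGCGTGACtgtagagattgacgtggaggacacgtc

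In the table, 6 of the 7 members, all but *Pax3*, had a window, 9 windows in all. Each was searched on both strands for the TATA box (TATAAA), for the CCAAT box, for the paired-domain core and for the dimer site of paired homeodomains (TAATNNNATTA). *Pax8* held CCAAT at bases −57 to −53 before its start, *Pax6* held it at −54 to −50, and *Pax1* held it at −63 to −59 and −52 to −48, whereas the *Pax2* windows held none of the 4 words. CCAAT occurred in 33.8% of 32851 windows of this length. The paired-domain core occurred at −34 to −28 in *Pax1*, and in 1.78% of all windows. The TATA box (12.4% of windows) and the homeodomain dimer site (0.463%) occurred in no member's window, which says only that these letters are not in these bases. The GC content of the printed windows was 60.8% for *Pax2*, 60.4% for *Pax8* and 58.8% for *Pax1*, against a median of 52.4% over all windows.

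The question put to the days was when each Pax gene appeared. Few cells held a Pax transcript at days 4 and 5, and 5 of the 7 genes were higher at day 6. The share of cells with at least 1 member was 8.31%, 10.4%, 24.0% and 17.6% on days 4, 5, 6 and 11, the last being the library with the fewest UMIs per cell.

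*Pax3* started at 2.54 CPM (2.32 to 2.77) on day 4, stood at 0.725 (0.612 to 0.854) on day 5, reached 13.7 (13.1 to 14.3) on day 6 and was 32.2 (31.2 to 33.3) on day 11. Its early level was thus followed by a low at day 5 before the high values of days 6 and 11. After every cell was thinned to 5000 UMIs, which removes the difference in depth, *Pax3* was found in 1.45%, 0.465%, 4.06% and 6.72% of cells, while the unthinned shares were 5.25%, 1.64%, 10.7% and 8.83%. *Pax7* was 0.270 CPM (0.202 to 0.355), 0.171 (0.119 to 0.239), 1.73 (1.53 to 1.95) and 8.08 (7.57 to 8.62) in the same order. The *Pax7* intervals of days 4 and 5 overlap, and that of day 11 lay above those of the other days.

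*Pax6* was 0.390 CPM (0.307 to 0.489) on day 4 and 0.660 (0.552 to 0.783) on day 5, then 6.54 (6.13 to 6.96) on day 6 and 7.0 (6.52 to 7.50) on day 11. The last 2 intervals overlap, and the thinned share of *Pax6*-positive cells was 2.46% on both days. *Pax2* was 0.556 CPM (0.456 to 0.672), 1.05 (0.915 to 1.21), 3.91 (3.60 to 4.24) and 3.73 (3.38 to 4.10), again with overlapping intervals at days 6 and 11. *Pax8*, its close relative, was 0.0884 CPM (0.0515 to 0.142), 0.282 (0.213 to 0.366), 5.39 (5.03 to 5.78) and 1.91 (1.66 to 2.18). Unlike *Pax2*, *Pax8* stood highest at day 6 with an interval apart from that of day 11.

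*Pax9* was 0.229 CPM (0.166 to 0.307) on day 4 and 1.52 (1.35 to 1.70) on day 5. It was highest on day 6, at 2.59 (2.34 to 2.86), and was 0.809 (0.652 to 0.992) on day 11. *Pax1* was nearly undetected until day 11: days 4, 5 and 6 gave 3, 34 and 17 UMIs, the last in only 7 cells, against 242 UMIs and 2.13 CPM (1.87 to 2.41) on day 11. The subfamily thus had *Pax9* highest at day 6 and *Pax1* highest at day 11.

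**Figure D1:**
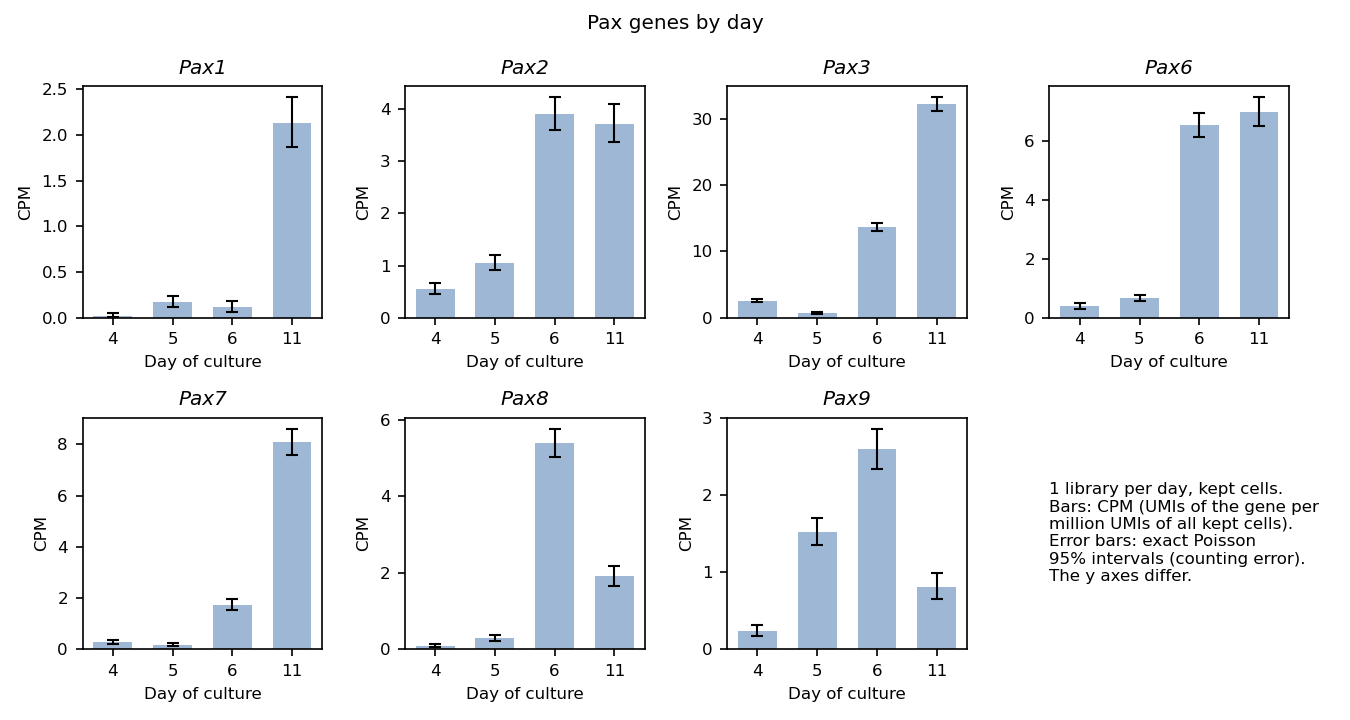
Level of each Pax gene by day of culture, with a linear CPM axis for each gene that starts at 0. Each bar is 1 library and each error bar its 95% counting interval. *Pax3* has its low on day 5 (0.725 CPM) and its high on day 11 (32.2 CPM), *Pax8* and *Pax9* are highest on day 6, and *Pax1* is at or under 0.171 CPM until day 11.

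Between consecutive days, genes with at least 50 UMIs over both libraries were read as higher at a CPM ratio of 2 or more and as lower at 0.5 or less. From day 4 to day 5, 2 of the 6 members counted were higher, *Pax9* 6.65-fold (4.83 to 9.34) and *Pax8* 3.19-fold (1.83 to 5.86), where 17.7% of all genes counted were higher. *Pax3* alone was lower, at a ratio of 0.286 (0.236 to 0.345), where 7.28% of all genes were. With so few members, these counts are not read as a result about the family.

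From day 5 to day 6, 5 of 7 members were higher against 17.7% of all genes, and none was lower against 12.8%. *Pax8* was 19.1-fold higher (14.6 to 25.5) and *Pax3* 18.9-fold (16.0 to 22.5). *Pax7* was 10.1-fold higher (7.05 to 14.9), *Pax6* 9.91-fold (8.25 to 12) and *Pax2* 3.71-fold (3.17 to 4.37). *Pax9*, at 1.70, stayed within the limits. *Pax1* was at a ratio of 0.661 on few UMIs. *Pax2*, *Pax3*, *Pax6*, *Pax7* and *Pax8* were thus past the limit at day 6, and *Pax1* and *Pax9* were not. The median ratio over all genes was 1.12.

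From day 6 to day 11, 3 of 7 members were higher against 18.2% of all genes and 2 were lower against 7.15%. *Pax1* was 18.8-fold higher (11.5 to 32.8), *Pax7* 4.67-fold (4.06 to 5.38) and *Pax3* 2.35-fold (2.23 to 2.48). *Pax8* had a ratio of 0.354 (0.303 to 0.412) and *Pax9* one of 0.312 (0.246 to 0.393). *Pax6* at 1.07 and *Pax2* at 0.954 were between the limits. With the mean of per-cell CPM in place of summed UMIs, *Pax9* alone remained lower, *Pax8* was at a ratio of 0.579 and *Pax2*, now in the other direction, at 1.65.

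Genes that work with Pax factors were set beside them by day. From day 5 to day 6, 9 of the 11 neural tube patterning genes counted were higher with a median ratio of 5.01, and 8 of 9 sclerotome and somite genes were higher with a median of 7.05. From day 6 to day 11, 8 of 11 genes of the somitic muscle program, a list that also holds general muscle genes such as *Myf5*, *Myod1* and *Myog*, were higher (median 6.08), and 4 of 9 intermediate mesoderm and kidney genes were lower while 2 were higher (median 0.539). On the same step, 3 of 11 neural tube patterning genes were higher and 5 were lower (median 0.766), while *Pax3* and *Pax7* were higher, and 1 of 9 sclerotome and somite genes was higher and 2 were lower (median 0.961), while *Pax1* was higher. The lists and the Pax genes named with them thus did not all share a direction, and the median over all genes was 1.07.

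The next question was in which cells the transcripts lay. Cells positive for *Sox2* (a neural and pluripotency factor), *Myod1* (the skeletal muscle determination factor), *Meox1* (a somite homeobox gene) and *Epcam* (an epithelial adhesion protein) were compared with the remaining cells of the same day. As background, cells with both *Cdh5* and *Pecam1*, which mark endothelium, were taken as a cell type that should hold little Pax transcript. They numbered 362 at day 6 (median depth 33577 UMIs) and 381 at day 11 (18762). *Pax3* was found in 0.552% of them at day 6 and 1.31% at day 11, and *Pax6* in 1.38% and 0.525%. *Pax7* was found in 0 of 362 cells at day 6, which allows a detected share of up to 0.829%, and in 0.787% at day 11. At day 11 the *Pax3* level there was 2.20 CPM (1.34 to 3.40). Shares at or under these values are read as background. At day 5 there were only 91 such cells, and 5 of them held *Pax6* (5.49%), at 1.49 CPM (0.548 to 3.25) and a ratio of 2.32 (0.837 to 5.20) to the remaining cells.

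The gate labels held unequally well. *Sox2*-positive cells were at least 2-fold higher for 7 of 7 neural progenitor markers at days 6 and 11, but for only 3 of 6 at day 4 and 4 of 6 at day 5. *Myod1*-positive cells at day 11 were higher for 10 of 10 skeletal myoblast markers. *Epcam*-positive cells were higher for at least 6 of the endoderm markers counted on every day. *Meox1*-positive cells were higher for 5 of 7 somite markers at day 6 but for 2 of 6 at day 11, 0 of 4 at day 5 and 2 of 5 at day 4, so that only at day 6 did most somite markers follow the gate. *Myod1* was positive in 10, 7 and 1 cells at days 4, 5 and 6, too few to be used.

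At day 6, 715 *Sox2*-positive cells (median depth 35322 UMIs) held 73.3% of the *Pax3*, 69.0% of the *Pax6* and 94.6% of the *Pax7* UMIs. *Pax3* was 54.8 CPM in these cells, 12.2-fold (11.1 to 13.5) above the remaining cells, and was found in 52.2% of them, or 21.4% after thinning. *Pax6* was 24.6 CPM, 9.93-fold higher (8.66 to 11.4), in 34.1% of cells (10.2% thinned). *Pax7*, at 8.93 CPM and in 17.6% of cells (3.64% thinned), was 78.3-fold higher (45.8 to 145). All 3 shares lay far above those of the endothelial cells of similar depth. *Pax9* was 6.37-fold higher (5.19 to 7.85), with 188 of its 229 UMIs there in 130 cells that were also *Epcam*-positive (ratio 21.1). For *Sox2*-positive cells without *Epcam* the ratio was 0.718, but to remaining cells that include these 188 UMIs. A difference between them and *Sox2*-negative cells alone was not tested. In all, 4 of 6 members were higher, where 6.09% of all genes were.

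At day 11 the *Sox2*-positive cells (863, median depth 13043 UMIs) contained 93.4% of all *Pax3* UMIs. *Pax3* was 238 CPM (230 to 246), 97.7-fold (85.8 to 112) above the remaining cells, in 67.2% of cells (53.7% thinned). *Pax6* was 41.7 CPM and 21.0-fold higher (17.9 to 24.8), in 33.3% of cells (14.1% thinned). *Pax7* was 27.0 CPM and 5.05-fold higher (4.42 to 5.77), the remaining cells standing at 5.34 CPM. It was found in 28.6% of *Sox2*-positive cells (12.5% thinned). *Pax9*, at 1.60 CPM, was 2.30-fold higher on 23 UMIs, of which 10 lay in *Sox2*-positive cells without *Epcam*. The ratio of the latter was 0.926 (0.428 to 1.79), to remaining cells that include the *Sox2*-positive cells with *Epcam*. Thus 4 of 7 members were higher against 8.05% of all genes, and *Pax3*, *Pax6* and *Pax7* also without the *Epcam*-positive cells.

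At the earlier days levels were low. At day 4, 3 of 4 members counted were higher in 1026 *Sox2*-positive cells against 8.58% of all genes: *Pax6* 7.91-fold (4.85 to 13.1), *Pax3* 3.03-fold (2.51 to 3.64) and *Pax7* 2.94-fold (1.60 to 5.31), the last on 20 UMIs. At day 5, 2 of 5 were higher in 622 cells against 8.26% of all genes, *Pax3* 3.62-fold (2.47 to 5.23) and *Pax6* 2.87-fold (1.87 to 4.29), the latter with an interval that overlaps that of the endothelial cells of the day. In *Sox2*-positive cells without *Epcam* the *Pax6* ratio was 2.71 at day 4 on 12 UMIs and 1.76 at day 5 on 7 UMIs. The comparison cells of these 2 ratios include the *Sox2*-positive cells with *Epcam*. Those held 35 of the 63 comparison UMIs at day 4 and 26 of the 124 at day 5. Whether the day 5 value lies within the limits against *Sox2*-negative cells alone was not tested. With only genes of at least 200 UMIs counted, *Pax3* was the 1 member higher at day 4 and none was at day 5.

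The neural tube patterning genes moved in the same cells. At day 6, 9 of 11 were higher in *Sox2*-positive cells (median ratio 28.8) and at day 11, 8 of 8 were (median 19.9), where the median over all genes was 0.944 and 0.968. *Zic1*, a dorsal neural gene, was 32.9 CPM in *Sox2*-positive cells at day 6 and 174 at day 11. *Nkx6-1*, a ventral progenitor factor, was 6.57 CPM at day 6 and 0.139, or 2 UMIs, at day 11. *Olig2*, which marks motor neuron progenitors, was 1.78 CPM at day 6 and had 1 UMI at day 11. *Nkx2-2*, the most ventral of the listed factors, was 0.109 CPM at day 6 and at 0 UMIs at day 11. *Zic1* thus stood higher at day 11 than at day 6, as *Pax3* and *Pax7* did, and *Nkx6-1* and *Olig2* stood lower, while *Nkx2-2* had too few UMIs on both days to be compared.

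In skeletal muscle both *Pax7* and *Pax3* were detected, and *Pax7* alone was past the ratio limit. Among 193 *Myod1*-positive cells at day 11 (median depth 22333 UMIs, against 11294 in the remaining cells), *Pax7* was 49.5 CPM (43.2 to 56.5), 7.77-fold higher (6.65 to 9.05), and was found in 45.1% of cells or 20.4% after thinning. *Pax3* was 18.2 CPM (14.5 to 22.6), a ratio of 0.556 to the remaining cells, which include the neural ones. Of all *Pax3* UMIs of the day, 3421 lay in *Sox2*-positive cells and 242 in *Sox2*-negative cells. Whether *Pax3* was higher against *Sox2*-negative cells alone was not tested. It was found in 13.5% of the *Myod1*-positive cells (6.81% thinned), above the 1.31% of the endothelial cells. *Pax9* was found in 0 of 193 cells, which allows a detected share of up to 1.55% and sets no limit on expression below detection. *Pax7* was the 1 member of 7 that was higher, where 3.68% of all genes were. The median ratio over all genes in this comparison was 0.717. The other 6 members lay below it, from 0 for *Pax9* to 0.556 for *Pax3*, the last against cells that include the neural ones.

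All 10 counted genes of the somitic muscle program were higher in *Myod1*-positive cells (median ratio 6.89), a count that does not bear on the origin of the muscle, since the list includes genes of muscle in general, among them *Myf5*, the early determination factor, at 24.2 CPM against 1.82 in all cells. Of the 7 genes of the cardiopharyngeal muscle program, 3 were higher and 2 were lower (median ratio 1.40). *Msc* (92.2 CPM against 9.89 in all cells) and *Tbx1* (13.3 against 1.36) were among the higher, and the lower were *Tcf21* (6.89 against 31.0) and *Lhx2* (3.78 against 11.5). Among 108 *Myf5*-positive cells, *Pax7* was 95.5 CPM and 15.8-fold higher (13.6 to 18.3), in 67.6% of cells. *Pax1* was 3.23-fold higher there (1.85 to 5.29) on 17 UMIs, whereas its ratio in *Myod1*-positive cells was 0.512 on 5 UMIs. At day 6, when *Myod1* was all but absent, 18 of 31 *Myf5*-positive cells, fewer than the 50 asked of a gate, held *Pax3*, at 96.3 CPM (79.2 to 116).

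Among *Meox1*-positive cells, *Pax8* and *Pax2* were the members raised at day 6 and *Pax7* at day 11. At day 6 (1406 cells, median depth 28014.5 UMIs), *Pax8* was 13 CPM and 5.75-fold higher (4.94 to 6.72), in 14.2% of cells (5.33% thinned), and *Pax2* was 7.31 CPM and 2.92-fold higher (2.48 to 3.45), in 8.46% (2.70% thinned). The endothelial cells held *Pax8* in 0.552% and *Pax2* in 0.276%. *Pax3*, a dermomyotome gene, was 14.6 CPM with a ratio of 1.10 to the remaining cells. With *Sox2*-positive cells left out of the gate, the ratio was 0.671 (0.599 to 0.751). The comparison cells then held all *Sox2*-positive cells, with 1509 of the *Pax3* UMIs. Of the 550 *Pax3* UMIs in *Sox2*-negative cells, 380 lay in the 1269 that were *Meox1*-positive. In all, 2 of 6 members were higher, where 1.13% of all genes were. The same cells were higher for 4 of 9 intermediate mesoderm and kidney genes (median ratio 1.86), with *Osr1*, an early marker of that tissue, at 52.4 CPM against 25.1 in all cells. Of the sclerotome and somite genes, 4 of 8 counted were higher and 1 was lower (median 2.05). In the somitic muscle program 3 of 6 counted were higher (median 2.03), so the kidney list was not singled out.

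At day 11 (468 cells, median depth 12482.5 UMIs) the 1 member of 7 that was higher in *Meox1*-positive cells was *Pax7*, at 20.2 CPM and 2.82-fold (2.36 to 3.35), in 12% of cells (6.22% thinned), where 2.66% of all genes were higher. *Myog*, a marker of differentiating muscle, was 112 CPM in these cells against 30.9 in all cells, and 8 of 11 somitic muscle genes were higher. At the earlier days few UMIs were behind the ratios. At day 5, 3 of 5 members were higher in 86 cells against 3.53% of all genes: *Pax8* 8.60-fold (3.01 to 20.1) on 6 UMIs, *Pax2* 3.60-fold (1.70 to 6.76) on 10 and *Pax3* 2.05-fold (0.550 to 5.36) on 4. At day 4, 1 of 4 was higher against 1.93% of all genes, *Pax7* at 2.69-fold (0.535 to 8.32) on 3 UMIs; the intervals of the day 5 *Pax3* value and of the day 4 *Pax7* value include a ratio of 1.

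In *Epcam*-positive cells *Pax9* stood out. At day 5, 1 of 5 members was higher among 2893 cells against 8.96% of all genes, and this was *Pax9*, at 2.65 CPM and 4.87-fold (3.64 to 6.60), with 80.8% of its UMIs in these cells. At day 6 (475 cells), *Pax9* was 14.9 CPM and 13.9-fold higher (11.3 to 17.2), in 16.2% of cells (5.27% thinned), against 0 of 362 endothelial cells. *Pax2*, at 16.2 CPM, was 6.79-fold higher (5.75 to 8.02) and *Pax8*, at 12.4 CPM, 2.74-fold. These were 3 of 6 members, where 5.92% of all genes were higher. Cells positive for *Foxa2*, a definitive endoderm factor, gave *Pax9* ratios of 11.8 (9.38 to 15) at day 5 and 27.3 (22.2 to 33.6) at day 6.

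At day 11 only 141 cells were *Epcam*-positive, and 3 of 7 members were higher against 5.58% of all genes: *Pax9* 6.83-fold (3.57 to 12.2) on 14 UMIs, *Pax1* 2.34-fold (1.26 to 4.00) on 14 and *Pax6* 2.28-fold (1.65 to 3.08) on 45. The 44 of these cells that were also *Sox2*-positive held 13 of the *Pax9* and 27 of the *Pax6* UMIs. At day 4, 1 of 4 was higher in 2007 cells against 9.64% of all genes, *Pax6* at 2.35-fold (1.45 to 3.82), but 35 of its 41 UMIs there were in the 603 cells that were also *Sox2*-positive (ratio 7.12). Of the 7 pharyngeal endoderm and pouch genes listed, 2 of the 3 counted were higher in *Epcam*-positive cells at day 11 (median ratio 15.9). These were *Foxa1*, a general endoderm factor, at 22.3 CPM against 0.659 in all cells, and *Foxe1*, a thyroid and oral ectoderm factor, at 7.90 against 0.686. *Foxn1*, *Gcm2* and *Nkx2-1*, which mark thymus, parathyroid and thyroid, had at most 1 UMI at days 6 and 11.

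**Figure D2:**
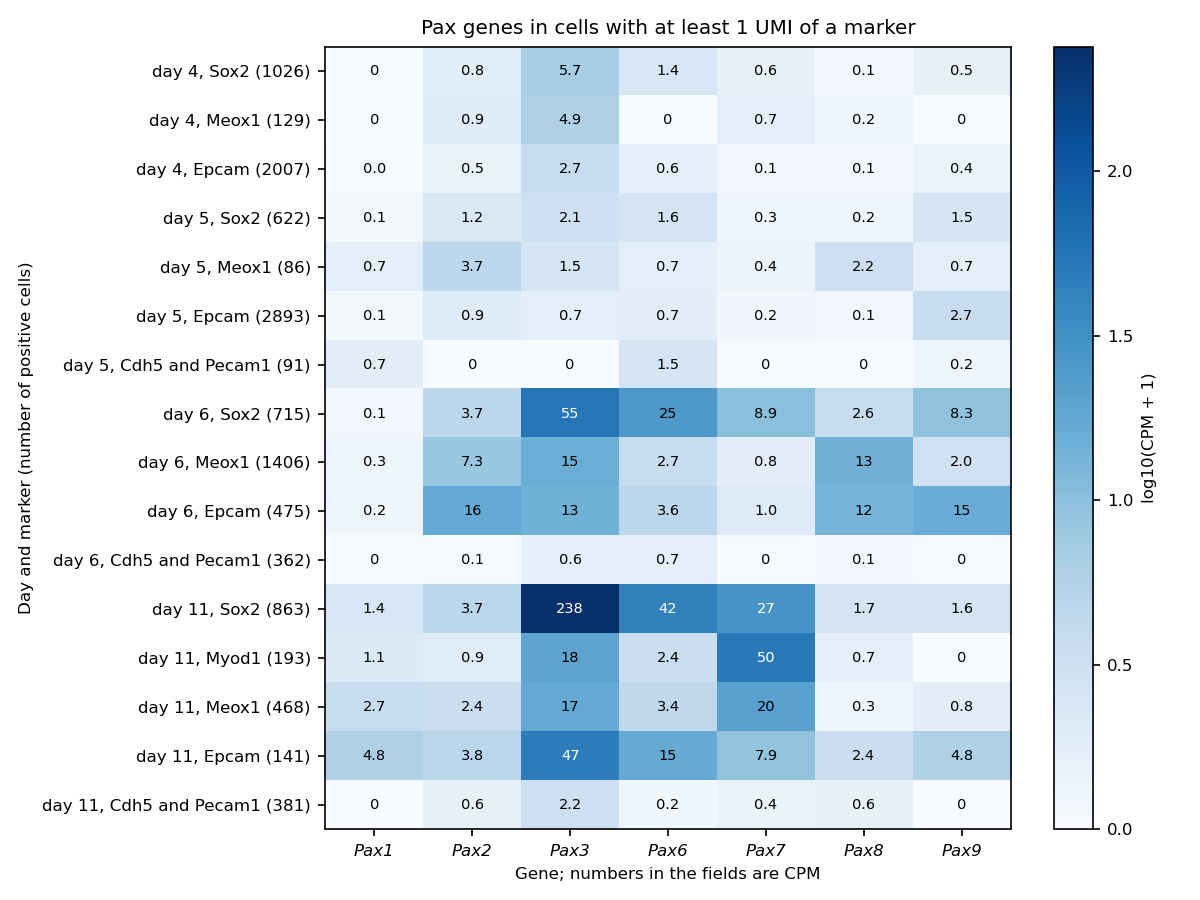
CPM of each Pax gene (columns) in cells positive for a marker or for both *Cdh5* and *Pecam1* (rows, by day, with the number of cells), coloured by log10(CPM + 1) with the CPM written in each field and 1 library per day. *Pax3* reaches 238 CPM in *Sox2*-positive cells of day 11 and *Pax7* is highest in *Myod1*-positive cells (49.5 CPM). *Pax9* is highest in *Epcam*-positive cells of day 6 (14.9 CPM), where *Pax8* (12.4 CPM) is close to its level in *Meox1*-positive cells.

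Cells were then grouped by Leiden clustering of each day, with all Pax genes left out of the variable genes, into 15, 13, 18 and 26 groups. Names were given from marker lists and rest on these rebuilt groups, and no test compares a group with the rest.

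At day 4 the group with the most *Pax3* (123 cells, led by *Hoxaas3*, *Hoxb5os* and *Hoxc8*) was neural progenitor-like, at 36.1 CPM (29.9 to 43.1). The streak-like cells led by *T* followed at 9.41 (7.53 to 11.6). The first group had 5 of 7 neural progenitor markers raised, but also 4 streak markers. It also held the highest *Pax7* (5.11 CPM, 2.98 to 8.18) and *Pax2* (4.81, 2.75 to 7.81). *Pax6* was highest in the epiblast-like cells led by *Dppa5a* (3.15 CPM, 2.11 to 4.52), which its next group overlapped. At day 5, *Pax3* (4.12 CPM) and *Pax2* (5.38 CPM) were highest in an unnamed group of 709 cells again led by *Hoxaas3*, without an interval apart from the next. *Pax9* was highest in the endoderm-like cells led by *Spink1*, at 10.5 CPM (8.98 to 12.3), and in another endoderm-like group at 7.42 (5.07 to 10.5).

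At day 6 the neural progenitor-like cells (415, led by *Sox2*, *Fabp7* and *Fam181b*) had *Pax3* at 81.0 CPM (76.6 to 85.6), *Pax6* at 41.3 (38.2 to 44.6) and *Pax7* at 15.7 (13.8 to 17.8). They held 94.2% of the *Pax7* UMIs but 61.4% of the *Pax3* UMIs. *Pax3* was also 87.1 CPM (71.0 to 106) in 31 neural crest-like cells led by *Foxd3*, 20.3 (18.4 to 22.2) in the somite-like cells led by *Meox1* and 16.7 (13.5 to 20.6) in an unnamed group led by *Hes7*. In the somite-like cells *Pax7* was only 0.410 CPM. *Pax3* was thus spread over several groups at day 6, and *Pax7* lay mostly in neural progenitor-like cells.

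*Pax2* and *Pax8* shared their highest group at day 6, 97 cells led by *Wfdc2*, *Rmst* and *Sfrp2* that stayed unnamed. *Pax2* was 103 CPM there (91.0 to 116), in 87.6% of cells, and *Pax8* was 82.0 (71.6 to 93.5), in 84.5%. *Lhx1*, a partner gene of the nephric lineage, was 92.7 CPM in this group and 3.86 in all cells, *Epcam* was 179 and *Osr1* only 3.33. The intermediate mesoderm-like cells (328, with *Osr1* and *Meox1* among the leading genes) came next for both, at 29.1 CPM *Pax8* (25.3 to 33.3) and 11.9 *Pax2* (9.54 to 14.7). In the somite-like cells *Pax8* was 14.1 (12.5 to 15.7) and *Pax2* 5.78 (4.82 to 6.88).

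*Pax9* at day 6 was 44.1 CPM (38.2 to 50.5) in 108 endoderm-like cells led by *Spink1*, *Rbp4* and *Epcam*, in 63.0% of them, and the next group of at least 50 cells was at 4.72 (3.27 to 6.59). In 20 epiblast-like cells it was 19.1 CPM, from 2 cells. The same endoderm-like cells had *Pax3* at 17.4 CPM (13.8 to 21.6). *Sox2* was 41.7 CPM in them. *Pax6* was also present outside neural cells at day 6: 8.43 CPM (6.68 to 10.5) in the cardiomyocyte-like cells led by *Actc1*, where 57 of 360 cells were positive, and 7.50 and 8.69 CPM in 2 unnamed groups that share the leading gene *Armh4*. These shares, 15.8% in the cardiomyocyte-like cells or 4.21% thinned, were above the 1.38% or 0.276% of the endothelial cells.

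**Figure D3:**
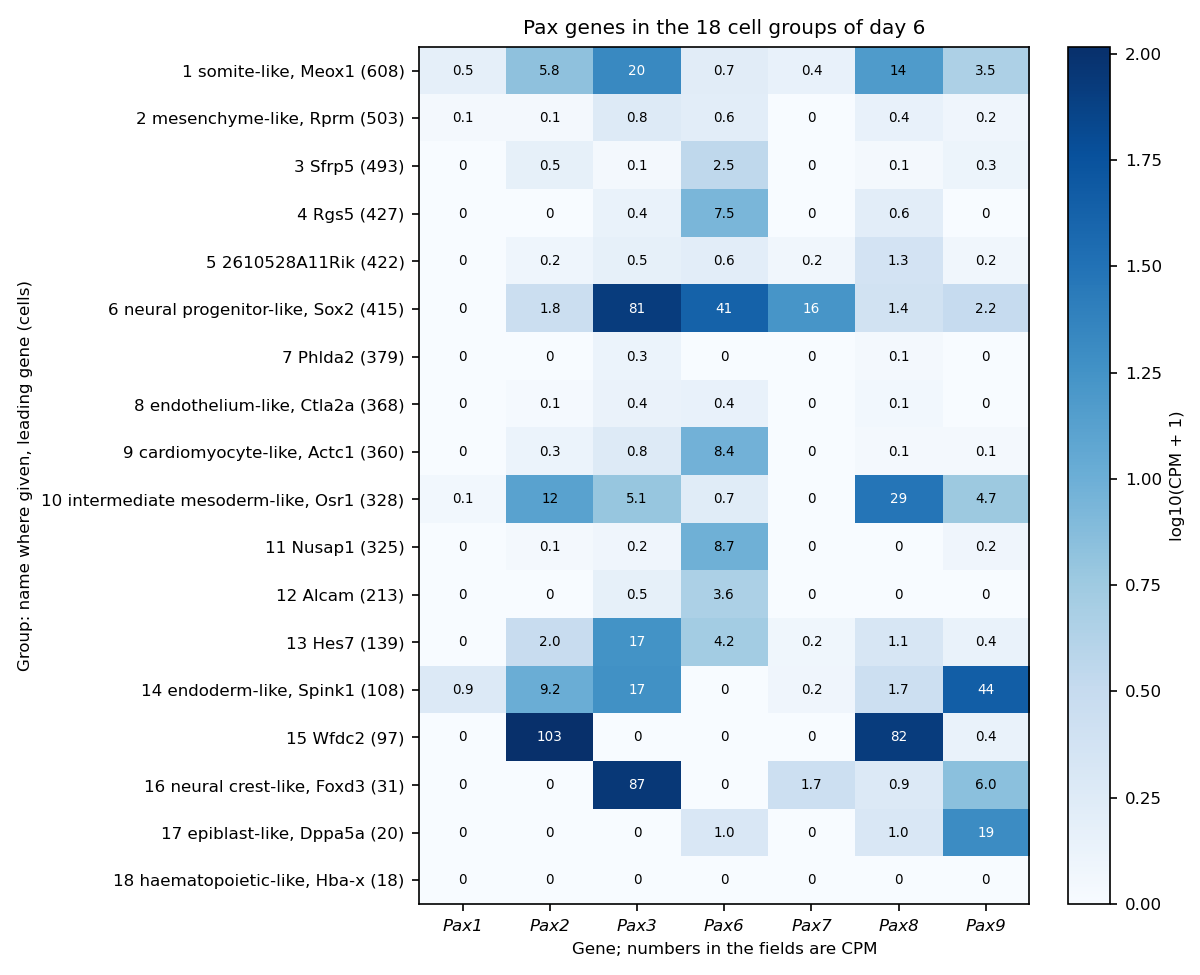
CPM of the 7 Pax genes (columns) in the cell groups of day 6 (rows, with number of cells and leading genes), coloured on a log scale with the value written in each cell. *Pax3*, *Pax6* and *Pax7* share the neural progenitor-like group, *Pax2* and *Pax8* the group led by *Wfdc2*, and *Pax9* is highest in the endoderm-like group (44.1 CPM).

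At day 11 the neural progenitor-like cells led by *Fabp7* (430 cells) had *Pax3* at 358 CPM (345 to 372), in 90.9% of cells, *Pax6* at 66.3 (60.6 to 72.3) and *Pax7* at 34.5 (30.4 to 38.9). The neuron-like cells led by *Tubb3* and *Neurog2* (276 cells) had 203 CPM *Pax3* (187 to 220), 28.2 *Pax6* (22.4 to 35.0) and 23.0 *Pax7* (17.8 to 29.2). All 3 were thus lower in these neuron-like cells than in the group led by *Fabp7*. A smaller neural progenitor-like group led by *Msx1* (79 cells) stood below the neuron-like values, with *Pax3* at 55.3 CPM, *Pax6* at 9.44 (5.16 to 15.8) and *Pax7* at 20.2, the last with an overlapping interval, and the neural crest-like cells (48) *Pax3* at 36.4 (25.0 to 51.1).

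*Pax2* and *Pax8* again shared a group, but a different one. The neuron-like cells led by *Cartpt*, *Sst* and *Ina* (241 cells) had *Pax2* at 154 CPM (138 to 171) and *Pax8* at 78.9 (67.9 to 91.2), with 84.2% and 84.3% of all UMIs of these genes. *Lhx1* was 555 CPM there and *Epcam* 1.29. *Pax3* was 4.74 CPM in these neurons, so the pair and *Pax3* had separate neuron-like groups.

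Muscle cells fell into 2 groups at day 11. In the skeletal myoblast-like cells led by *Car3*, *Msc* and *Myog* (229 cells), *Pax7* was 93.2 CPM (85.1 to 102), in 66.8% of cells (35.2% thinned), and made up 52.2% of all *Pax7* UMIs. *Pax3* was 19.8 CPM (16.2 to 24.0) in 35 of these cells. In the 44 skeletal myoblast-like cells led by *Mylpf*, *Tnnc2* and *Acta1*, genes of contractile muscle, *Pax7* was 2.01 CPM on 2 UMIs and *Pax3* 3.02 on 3 UMIs, while *Myog* was 1711 CPM against 340 in the first group. *Pax7* was thus lower in the group with more *Myog*, at similar median depths of 20930 and 22285 UMIs.

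*Pax1* was highest in a mesenchyme-like group at day 11. It was 18.0 CPM (14.2 to 22.5) in the mesenchyme-like cells led by *Cxcl14* (390 cells), 9.32 (6.24 to 13.4) in an unnamed group led by *Lix1* and 8.57 (6.89 to 10.5) in mesenchyme-like cells led by *Scx*, a tendon gene. The 6 mesenchyme-like groups, which are 37.4% of the cells, held 70.2% of its UMIs, and over all of them it was 5.36 CPM (4.58 to 6.23). It was also 6.21 CPM (4.25 to 8.77) in the myoblast-like cells led by *Car3*, where 12 of 229 cells were positive (2 of 227 thinned) and 1 cell held 12 of the 32 UMIs. *Pax9* was 15.1 CPM (8.28 to 25.4) in 39 endoderm-like cells on 14 UMIs, 7.39 (4.69 to 11.1) in the group led by *Lix1* and 5.69 (3.64 to 8.46) in that led by *Cxcl14*. *Pax9* thus shared groups with *Pax1* at day 11, whereas at day 6 the endoderm-like cells held 52.7% of its UMIs. *Nkx3-2*, a sclerotome factor, had only 8 UMIs at day 6 and 10 at day 11. *Pax6* remained at 4.39 and 5.17 CPM in 2 cardiomyocyte-like groups.

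**Figure D4:**
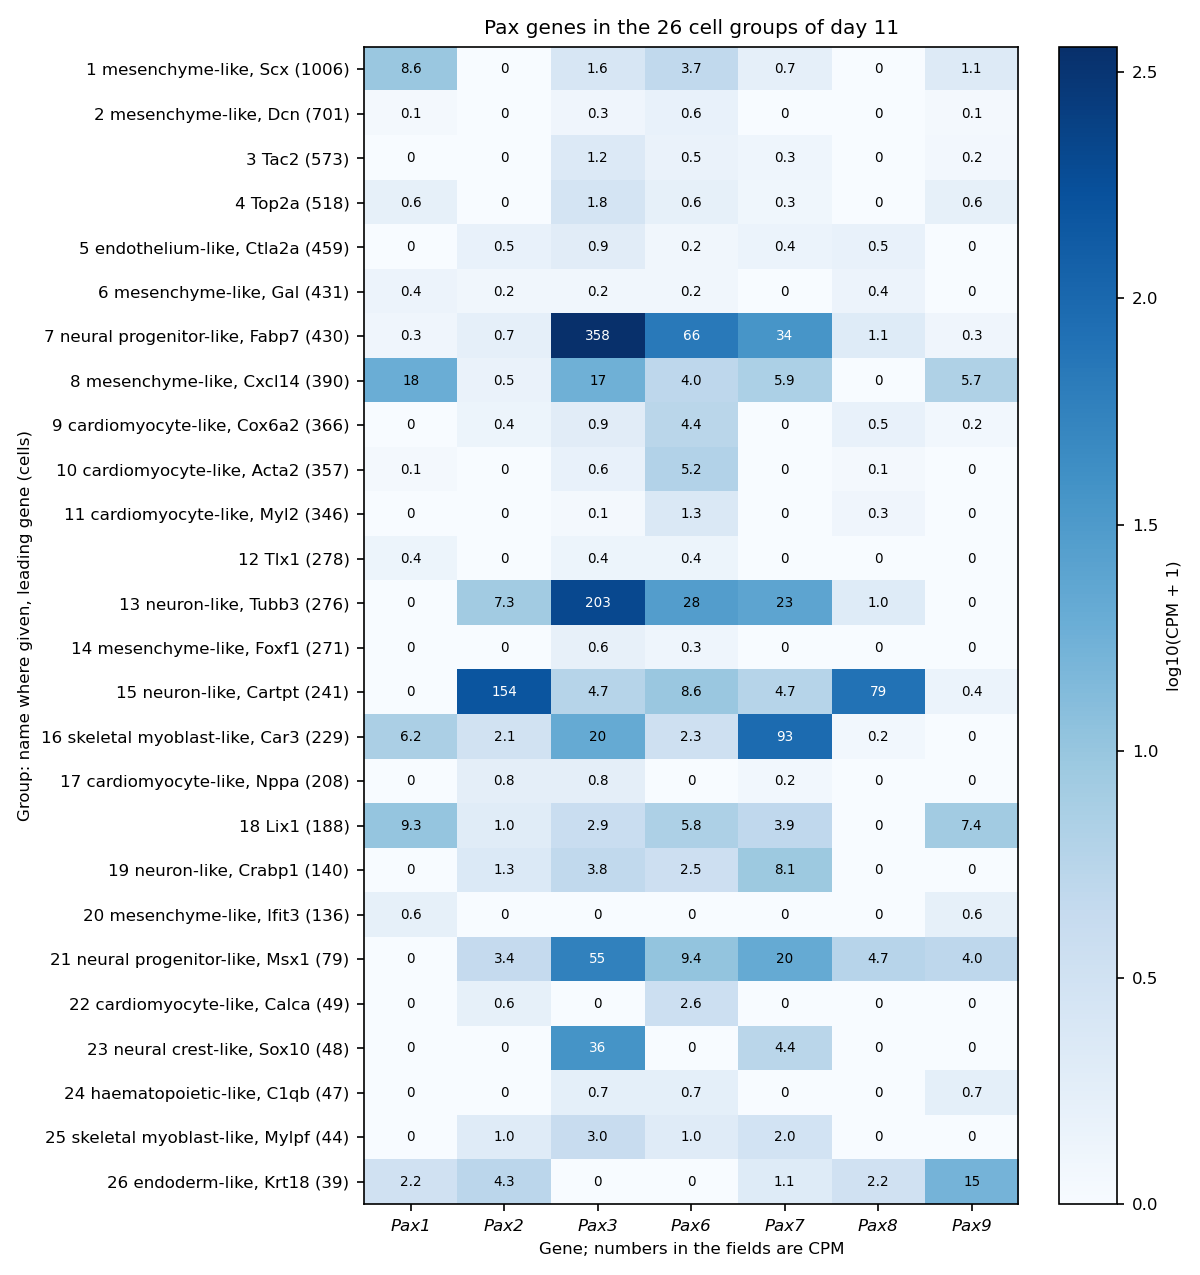
CPM of the 7 Pax genes (columns) in the cell groups of day 11 (rows, with number of cells and leading genes), coloured on a log scale with the value written in each cell. *Pax7* is highest in the myoblast-like group led by *Car3* (93.2 CPM) and *Pax3* in the neural progenitor-like group (358 CPM). *Pax2* and *Pax8* are highest in neuron-like cells led by *Cartpt*, and *Pax1* is highest in mesenchyme-like cells.

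Co-detection asks whether members lay in the same cells, and depends on depth, so thinned counts are given beside it for most pairs. They are not given for *Pax1* with *Pax9*, nor for *Pax3* with *Pax7* or *Tbx1* in *Myod1*- or *Myf5*-positive cells, where depth is thus not accounted for. At day 6, 116 of 138 *Pax7*-positive cells also held *Pax3* (84.1%, thinned 12 of 28), and 192 of 449 *Pax6*-positive cells did (42.8%, thinned 25 of 129). At day 11 these shares were 51.3% of 454 *Pax7*-positive cells (thinned 85 of 207) and 63.6% of 426 *Pax6*-positive cells (thinned 97 of 185). *Pax6* was also found in 93 of the 138 *Pax7*-positive cells of day 6 (67.4%, thinned 9 of 28). *Pax2* and *Pax8* met in 138 cells at day 6, which is 59.2% of the *Pax2*-positive and 44.8% of the *Pax8*-positive cells (22 cells thinned), and in 69 at day 11, 40.1% and 66.3% (35 thinned). *Pax1* and *Pax9* met in 4 cells at day 11, 2.88% of the *Pax1*-positive and 5.97% of the *Pax9*-positive cells.

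At day 6, 67 of 188 *Pax9*-positive cells held *Pax3* (35.6%, thinned 6 of 50) and 34 held *Pax2* (thinned 1). Among the 247 cells at day 11 positive for *Myod1* or *Myf5*, 122 held *Pax7*, 34 held *Pax3* and 19 held both, the last being 55.9% of the *Pax3*-positive and 15.6% of the *Pax7*-positive cells. *Tbx1*, the upstream factor of cardiopharyngeal muscle, was found in 39 of them. *Tbx1* and *Pax3* met in 2 cells and *Tbx1* and *Pax7* in 25, which is 64.1% of the *Tbx1*-positive cells. After thinning, 11 cells held *Tbx1* and 61 held *Pax7*, and none held both.

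**Figure D5:**
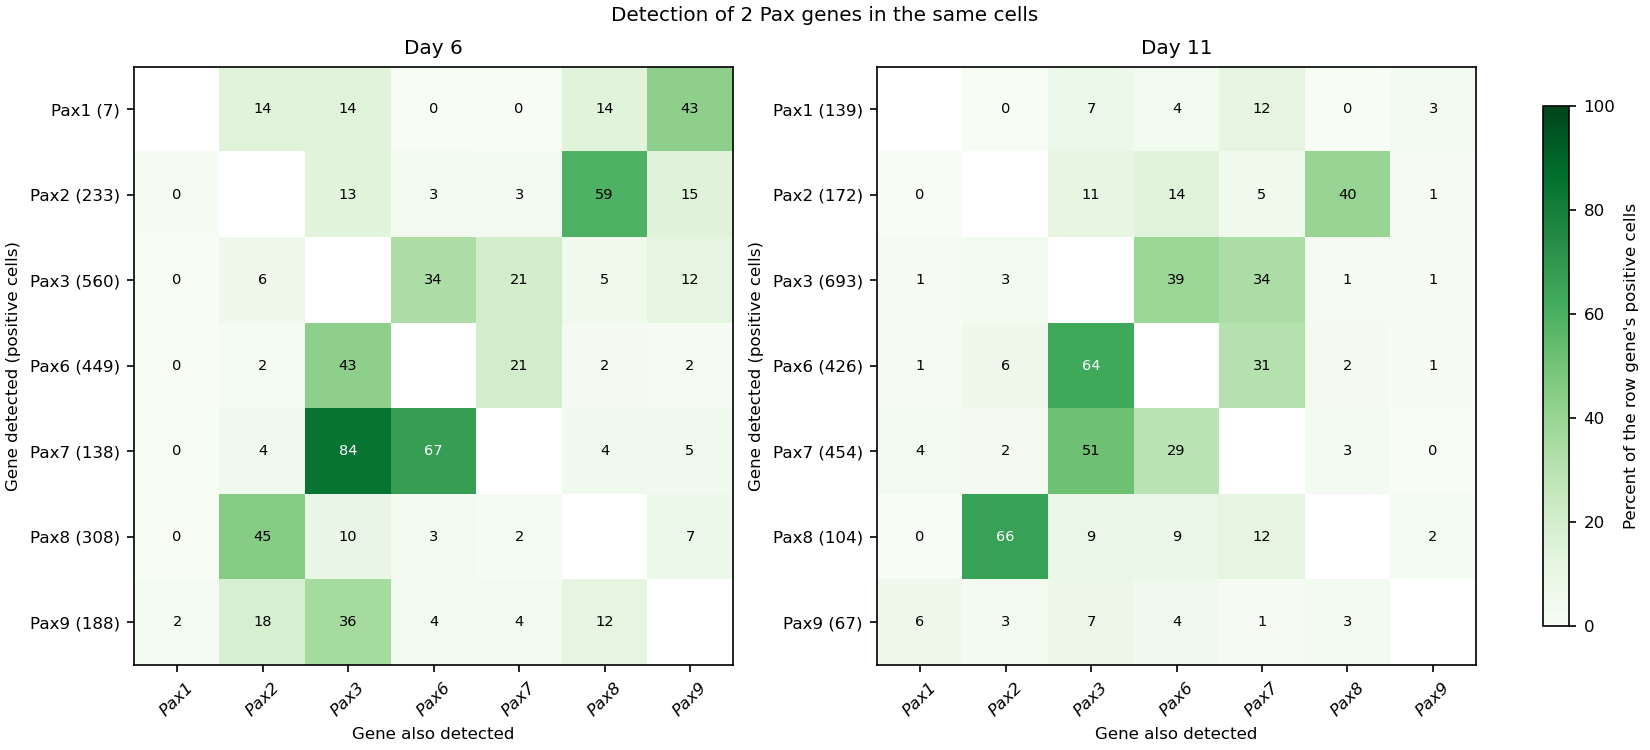
Share of the cells positive for the row gene that also held the column gene, in percent, over all kept cells of day 6 and day 11. The shares for *Pax7* with *Pax3* (84.1% and 51.3%), for *Pax8* with *Pax2* (44.8% and 66.3%) and, at day 6, for *Pax7* with *Pax6* (67.4%) stand among the highest. Most other pairs are low.

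Over 62 groups of at least 50 cells from the 4 days, levels were correlated as log2(CPM + 1) among 15279 genes. Groups of a day share a library, its depth and its free RNA, so these values of Pearson's r are descriptions. Among the members, *Pax2* and *Pax8* were most alike (r = 0.88), followed by *Pax3* and *Pax7* (0.80), *Pax6* and *Pax7* (0.65) and *Pax3* and *Pax6* (0.63). *Pax1* and *Pax9* reached only 0.38, and the remaining pairs at most 0.39. Subfamily partners were thus alike for *Pax2* with *Pax8* and for *Pax3* with *Pax7*, and much less so for *Pax1* with *Pax9*.

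*Pax3* was most like *Hes5*, a Notch target of neural progenitors (0.85), *Mfsd2a*, *Pax7*, *Rfx4* and *Zic1*. *Pax7* was most like *Zic1* (0.85), *Lrrn1*, *Zic4*, *Btbd17* and *Pax3*. For *Pax6* the genes included *Rfx4* (0.73), *C130071C03Rik*, *Msx3* and *Gm46519*.

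*Pax2* was followed, after *Pax8*, by *Gm35610* (0.86), *Fgf9*, *Hoxb9* and *Gm42372*, and *Pax8* by *Gm35610* (0.84), *Stum*, *Clec18a* and *Uncx*. *Gm35610* is a long non-coding RNA that RefSeq places at chr19:44740791-44742711, 3889 bases before the first base of *Pax2* in RefSeq (44746601), which lies upstream of the GENCODE start given above. *Pax1* was most like *AI646519* (0.91), the antisense RNA that shares 869 bases with it, then *Dmrt2* (0.86), *Tnfaip6*, *Wif1* and *Tbx15*. *Pax9* was most like *Apoa1* (0.74), *2210011C24Rik*, *Rbp4*, *Ihh* and *Fxyd3*, of which *Apoa1* and *Rbp4* encode proteins secreted by endoderm. The names depend on the settings: between 0 and 3 of the 5 genes per member stayed in the lists with rank correlation, 2 to 4 at Leiden resolution 0.5 and 2 to 4 with doublets left in.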

How the data were processed

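Single cell libraries were made with the 10x Genomics 3′ v3.1 kit, 1 per day. The deposited UMI counts per gene and cell were made by the authors against mm10; the submitters' processing notes name Cell Ranger 3.1.0, whereas the header of the deposited day 11 matrix gives 6.0.1 and the other headers 3.1.0. The libraries held 7324, 7794, 6628 and 9584 barcodes and 227398362, 236714826, 182150138 and 149169498 UMIs. Cells were kept with more than 200 genes, the 1 limit the study's methods give as a value. Limits on mitochondrial share, ribosomal share and UMIs, which the authors set by hand per library, were set here at under 20%, over 5% and within 3 scaled MADs, after which the 8% of barcodes with the highest scores of simulated doublets were removed.

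CPM are summed UMIs of a gene per 1000000 summed UMIs. Intervals are exact (Poisson for CPM, conditional binomial for ratios), at 95%. Shares were repeated after thinning to 5000 UMIs, which left out 0, 0, 12 and 315 shallower cells. Gates needed 50 cells, and ratios of at least 2 or at most 0.5 on at least 50 UMIs were counted. Groups came from 2000 variable genes without Pax genes, 30 principal components, 20 neighbours and Leiden resolution 1, and were named from 115 markers of 15 classes, at least 3 of them raised. Named genes were the members, gate genes, genes of the lists, leading genes of groups and the 5 most alike genes per member; a few of these are not reported here. The 7 members and the lists were chosen with earlier results of these data known. No day has a replicate, so no test was run. Barcode doublets that the score missed remain. Scripts were tested on simulated data (Python 3.11.15, numpy 2.4.6, scipy 1.17.1, pandas 2.3.3, scanpy 1.11.5, scikit-learn 1.9.0, leidenalg 0.10.2, matplotlib 3.10.9). Alternatives changed filters, doublet removal, thresholds, averaging, thinning depth, clustering resolution and the correlation.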

Additional observations from a re-analysis of the deposited data

Results flagged for a closer look

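Among *Meox1*-positive cells the direction of 2 members was opposite on different days. *Pax8* was 8.60-fold higher at day 5 and 5.75-fold higher at day 6 than in the remaining cells, but stood at a ratio of 0.124 at day 11. *Pax7* was at 0.364 at day 6 and 2.82 at day 11. These differences between days were not tested, and the share of cells positive for *Meox1* differed as well, 1.33%, 26.8% and 5.96% on the 3 days in order.

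In *Epcam*-positive cells *Pax8* was at a ratio of 0.350 at day 5 and 2.74 at day 6, a difference that was not tested either. These cells held 13 and 205 *Pax8* UMIs, and they were 44.8% of all cells at day 5 but 9.04% at day 6. *Pax5*, a Pax gene outside the 7 members, had more than the 3 UMIs that a count of 0 allows on days 5, 6 and 11, with 9, 6 and 15 UMIs, the last in 9 cells.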

How the results depend on the processing

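Of the counts of members past a ratio limit under alternatives, 90 stayed within 1.5 times the value given and 16 did not. Of the other values, 431 stayed within their interval, 159 moved outside it and 3 ratios whose interval lay to one side of 1 crossed 1; ratios whose interval included 1 are not counted as crossing. With only genes of at least 200 UMIs counted, 1 member was higher from day 4 to day 5, 1 in *Sox2*-positive cells at day 4 and 0 at day 5, 0 in *Meox1*-positive cells at day 4 and 1 at day 5, and 0 in *Epcam*-positive cells at day 4. With genes of at least 20 UMIs counted, 5 were higher in *Meox1*-positive cells at day 5 and 2 in *Epcam*-positive cells at day 4. With every cell over 200 genes kept, and likewise with doublets left in, 2 were higher in *Meox1*-positive and 2 in *Epcam*-positive cells at day 4. With the mean of per-cell CPM these counts were 3 and 0, and 1 member was lower from day 6 to day 11. With at least 2 *Meox1* UMIs asked of a positive cell, 2 members were higher at day 11. *Pax9* in *Meox1*-positive cells at day 6 was at a ratio of 0.698, but at 1.09 by the mean of per-cell CPM and 1.02 with 2 UMIs asked of the marker. *Pax3* in *Epcam*-positive cells at day 11 was at 1.47, but at 0.940 with every cell over 200 genes kept. The causes were not tested. No paired analysis was possible because each day has 1 library and no number pairs the days. The values of *Pax1* before day 11 and of the *Meox1* gates at days 4 and 5 rest on few UMIs, which limits their precision.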
